A study of Mus musculus with 4 samples.

Results

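The GABA-A receptor subunits described here are the products of 7 mouse genes, Gabra2, Gabra3, Gabra4 and Gabra5 (alpha subunits), Gabrb1 and Gabrb2 (beta subunits) and Gabrg1 (a gamma subunit). Their members are all probe sets, short-probe readouts of a transcript on the Affymetrix MOE430 2.0 array, that the platform annotation assigns to exactly 1 of these symbols. This gave 21 probe sets of 34945 with a single symbol, and 7 of 18193 genes. RNA came from mouse prefrontal cortex in 2 environments, labelled HighThreat (mice subject to repeated social threat, called threat) and LowThreat (control mice, called control). Each group held 2 pools, and each pool held RNA of 5 mice and was read on 1 array. Strain, sex, age, the length of the exposure and the separation of cages between pools were not given in the sources used here. Since each array read a pool, p-values and standard errors (SE) rest on the spread between pools, which is not the spread between animals. The test used, limma, moderates them: it draws each probe set's spread toward that of all probe sets. They are thus not a measure of a probe set's own pools alone.

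The GABA-A receptor is a chloride channel opened by the inhibitory transmitter GABA and is built from several subunits around a central pore, most often alpha, beta and gamma subunits together. The alpha subunit shapes where the receptor sits and which drugs bind it: alpha2 and alpha3 are found in receptors at synapses, alpha5 and, with a delta subunit, alpha4 mainly in receptors outside synapses that carry tonic inhibition. Beta subunits are needed for assembly and contribute to the GABA binding site, and the gamma subunit forms the benzodiazepine site with the alpha subunit. Transcripts of gamma1, alpha2 and beta1 are also made by astrocytes.

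Gabrg1, Gabra2, Gabra4 and Gabrb1 lie in 1 gene cluster on chromosome 5, in this order, with Cox7b2 as the single other protein-coding gene between them in the mouse annotation GRCm38.p6, while Gabra3 is on chromosome X, Gabra5 on chromosome 7 and Gabrb2 on chromosome 11. RefSeq start windows (GRCm38.p6) were found for 7 of the 7 genes, 11 windows in all. The 250 bases before the annotated gene start are shown for 3 of them. Gabra3 and Gabrg1 are the genes with more than 1 probe set whose probe sets all had the threat pools on the same side of the control pools, and Gabra2 is the gene whose probe sets disagreed most. Capitals mark a match, on either strand, to the TATA box word TATAAA or to the GC box word GGGCGG.
Gabra3, chrX:72656920-72657169, minus strand: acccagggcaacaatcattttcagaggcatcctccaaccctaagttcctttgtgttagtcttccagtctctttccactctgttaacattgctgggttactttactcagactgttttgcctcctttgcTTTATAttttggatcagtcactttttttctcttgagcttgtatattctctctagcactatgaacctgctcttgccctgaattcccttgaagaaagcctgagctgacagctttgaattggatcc
Gabrg1, chr5:70842618-70842867, minus strand: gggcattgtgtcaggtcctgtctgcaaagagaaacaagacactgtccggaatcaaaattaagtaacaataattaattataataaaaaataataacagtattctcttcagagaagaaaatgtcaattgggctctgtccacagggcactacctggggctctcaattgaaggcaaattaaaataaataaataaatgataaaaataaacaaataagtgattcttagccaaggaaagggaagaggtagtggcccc
Gabra2, chr5:71095850-71096099, minus strand: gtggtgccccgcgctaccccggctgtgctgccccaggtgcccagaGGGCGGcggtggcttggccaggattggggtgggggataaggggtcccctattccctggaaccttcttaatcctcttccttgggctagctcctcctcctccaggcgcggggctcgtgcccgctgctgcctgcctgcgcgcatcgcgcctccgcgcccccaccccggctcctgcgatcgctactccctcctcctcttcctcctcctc
The Gabra3 and Gabrg1 stretches were poor in G and C (42.4% and 35.6%) and held 0 and 1 CpG dinucleotides. That of Gabra2 was 70.0% G and C with 18 CpG, and those of its cluster neighbours Gabra4 and Gabrb1 were 61.2% and 64.4% with 12 and 18 CpG, against medians of 52.4% and 6 CpG over 32851 windows of this length. The Gabra3 stretch held 1 TATAAA, on the other strand 123 bases before the start, a word found in 12.4% of all windows. The Gabra2 stretch held 1 GGGCGG, found in 32.7%. The cAMP response element TGACGTCA was searched too and was in none of the 11 windows, against 1.55% of all. The capitals do not overlap one another, and a match is a description of the letters, not a binding site.

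The deposited values were log2 signals, so that a difference of 1 is a factor of 2. They ran from 2.51 to 14.37 over 45101 probe sets, with array medians between 5.53 and 5.58 and correlations between arrays of 0.9942 to 0.9961. As a guide to background, 27 probe sets for Bacillus transcripts, absent from mouse RNA, lay between 3.01 and 4.25. Neuronal markers were high in every pool. The mean of 8 general neuron markers lay between 12.05 and 12.07 in the control and 12.04 and 12.06 in the threat pools. Both threat pools lay below both control pools in 3 of these 8 and above them in 1, with 5 below 0 and a median of -0.02. Of 8 measured excitatory cortical markers, 2 were higher and 2 lower in threat with pools that did not overlap between the groups (called separate pools), among them the vesicular glutamate transporter Slc17a7 at a log2 difference of 0.23 and the transcription factors Tbr1 at -0.53 and Neurod6 at -0.39. Markers of other cells and regions lay mostly lower in threat: separate pools with threat lower were found in 10 of 10 measured myelin markers (median -0.98), 5 of 8 mural and meningeal markers (all 8 below 0, median -0.66) and 4 of 6 endothelial markers (all 6 below 0, median -0.33). The same held for 2 of 5 striatal markers (all 5 below 0, median -0.32) and 3 of 8 septal, thalamic and olfactory markers (7 below 0, median -0.14), beside 18.8% of all 18193 genes. None of the 87 measured marker genes passed an adjusted p of 0.05 in limma (smallest 0.32), and the part of these cells and regions in the subunit values was not tested. In tissue RNA, fewer cells of a type and less RNA per cell cannot be told apart.

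Of the 21 subunit probe sets, 19 were above the Bacillus range in at least 1 pool and 18 were above 5.56, the median of all probe sets. Both exceptions at background were Gabra2 probe sets, 1449807_x_at at 3.33 to 3.68 and 1420299_at at 3.30 to 3.54. The brightest were 1429685_at of Gabrb2, with a mean of 11.63 over the 4 pools, and 1419719_at of Gabrb1 with 11.39, and the ranges of these 2 over the pools did not meet (11.58 to 11.68 and 11.21 to 11.53). By the brightest probe set of each gene, the order of signals went on with Gabra4 (10.88), Gabra3 (10.52), Gabra2 (9.80), Gabrg1 (9.26) and Gabra5 (9.19). In that order Gabrg1 (9.07 to 9.43) and Gabra5 (9.09 to 9.37) overlapped and could not be ordered, while the ranges of the other neighbours were apart. This is an order of signals and not of transcript amounts, since probes differ in how well they bind: probe sets of a single gene above background spanned 2.84 in Gabrb2, 1.98 in Gabra3, 1.79 in Gabrg1, 1.17 in Gabra4 and 6.29 in Gabrb1. The median span was 1.86 over 7388 genes with several such probe sets. Between control and threat the brightest 3 and the dimmest 5 of the 21 probe sets kept their rank, and so did Gabra5, Gabra4 1433707_at and Gabrg1 1460408_at. Gabra3 1436957_at stood 8th in control and 7th in threat, changing places with Gabrb1 1435095_at.

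**Figure D1:**
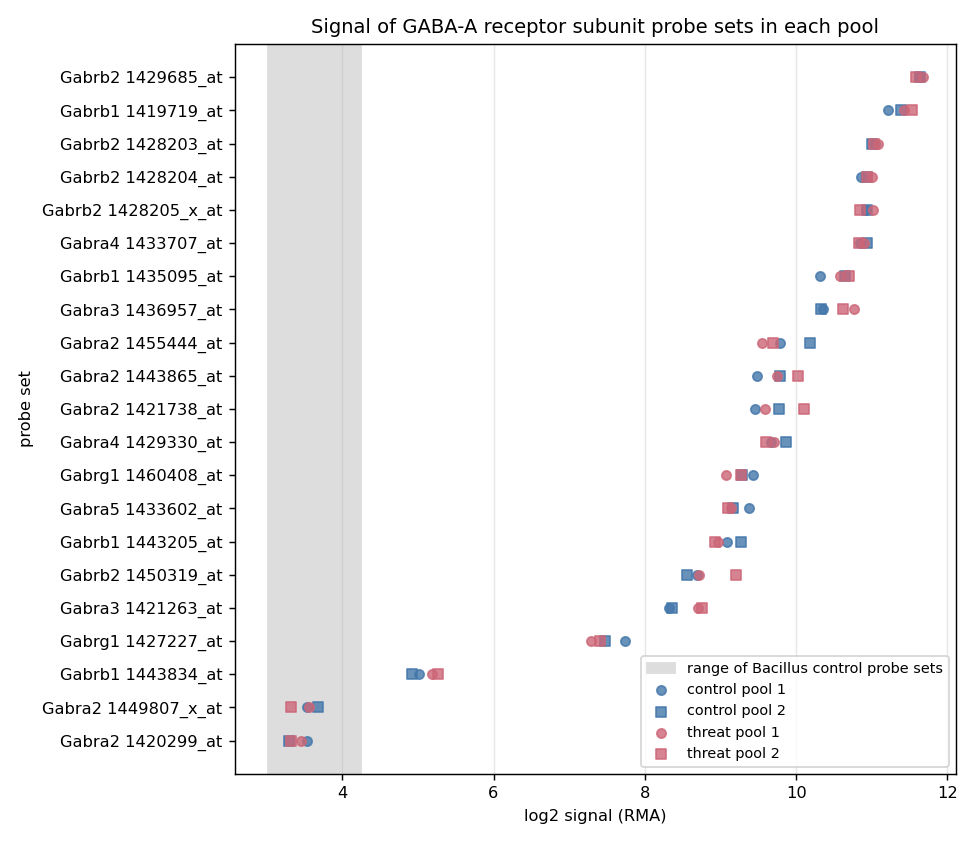
Log2 signal (x axis) of the 21 subunit probe sets (rows, sorted by mean) in each of the 4 pools; blue marks are control and red marks threat, circles pool 1 and squares pool 2, and the grey band is the range of the Bacillus control probe sets, 3.01 to 4.25. Only 2 Gabra2 probe sets sit in the band, and differences between pools are small beside those between probe sets.

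Threat was compared with control in limma's test over all 45037 probe sets that are not controls, and none of the 21 passed an adjusted p of 0.05 (Benjamini-Hochberg), as none did among all probe sets (0%, smallest adjusted p 0.278). The smallest among the subunits was 0.423. At an unadjusted p under 0.05 there were 3, each higher in threat, 2 of Gabra3 and 1 of Gabrb1, beside 10.6% of all probe sets (4.87% higher). Both threat pools lay above both control pools in 5 of the 21 and below in 5, beside 23.9% and 19.4% of all probe sets and 43.2% in either direction, or 46.1% of those above background. The count of separate pools was thus near the background. No subunit probe set reached a difference of 1.5-fold, which 0.83% of all probe sets did with separate pools. Their log2 differences ran from -0.35 to 0.39 with a median of 0.01, against a median of 0.02 over all. The median size without sign was 0.19 for the 19 above background, against 0.13 for all probe sets above it. The 95% intervals of 13 of those 19 lay wholly within 1.5-fold in either direction.

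**Figure D2:**
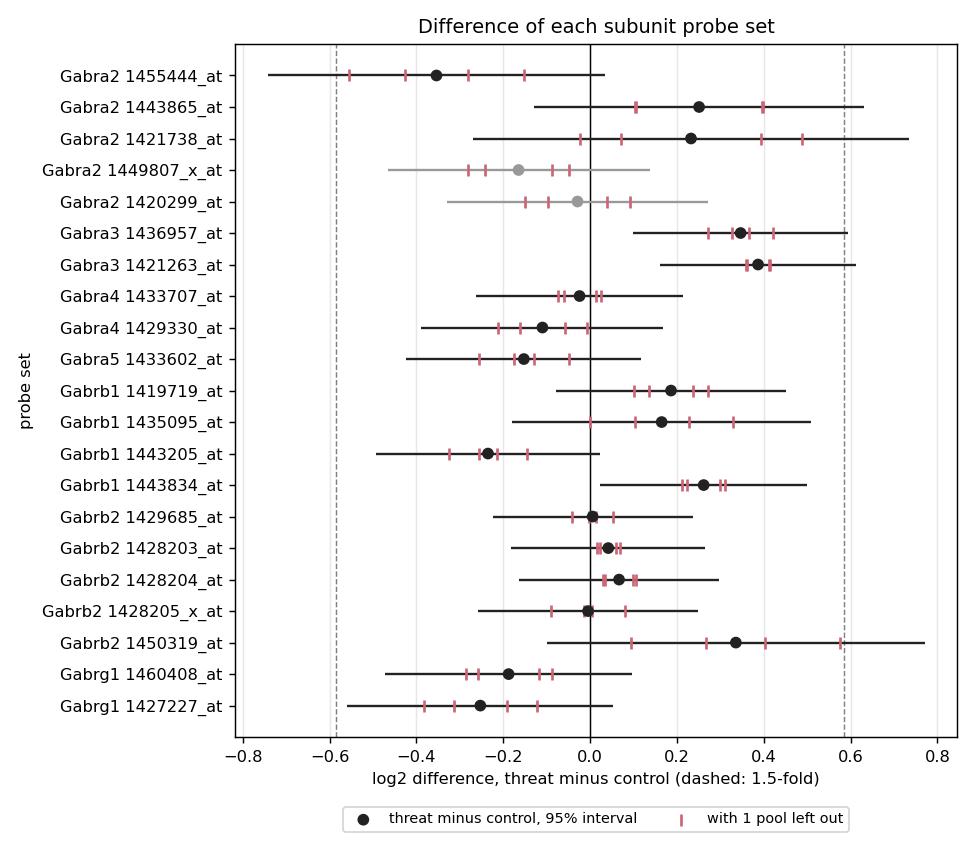
Log2 difference, threat minus control (x axis), of each subunit probe set (rows, by gene) with limma's 95% interval as a bar; red ticks are the difference with 1 pool left out, dashed lines mark 1.5-fold and grey rows lie at background. Only the 2 Gabra3 rows and Gabrb1 1443834_at have intervals clear of 0.

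Gabra3, the alpha3 subunit, was higher in threat by both of its probe sets. The brighter, 1436957_at, measured 10.36 and 10.32 in control and 10.76 and 10.62 in threat. The other, 1421263_at, measured 8.31 and 8.36 in control and 8.70 and 8.75 in threat. In both, the 2 threat pools stood above the 2 control pools by more than the pools of a group differed from each other. The log2 differences, with limma's moderated SE, were 0.35 ± 0.10 (95% interval 0.10 to 0.59) and 0.39 ± 0.09 (0.16 to 0.61). These were 1.27-fold and 1.31-fold, with n = 2 pools a group. The unadjusted p in limma was 0.0145 and 0.00626, and the adjusted p 0.433 and 0.423. With 1 pool left out at a time, they stayed between 0.27 and 0.42 and between 0.36 and 0.42. Both probe sets share their arrays, so they are not independent of each other.

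Gabra2, the alpha2 subunit, gave no single direction. Its 3 probe sets above background had nearly the same mean signal, 9.73 to 9.80, so that they differ in direction and not in brightness. Probe set 1455444_at measured 9.78 and 10.18 in control and 9.55 and 9.70 in threat, a log2 difference of -0.35 ± 0.16 (95% interval -0.74 to 0.03, adjusted p = 0.49 in limma), with both threat pools lower. Probe set 1443865_at measured 9.49 and 9.78 in control and 9.74 and 10.03 in threat, and 1421738_at 9.46 and 9.78 in control and 9.59 and 10.10 in threat. The pools of these 2 overlapped, with differences of 0.25 ± 0.15 (95% interval -0.13 to 0.63) and 0.23 ± 0.20 (-0.27 to 0.74). Within each array, 1455444_at stood above the mean of the other 2 by 0.31 and 0.40 in control, and that difference was -0.11 and -0.37 in threat. The sign of the Gabra2 difference thus depended on the probe set, and the contrast between probe sets was formed after their values were seen and has no test. The size of the difference for 1455444_at also depended on 1 pool, at -0.15 without control pool 2 and -0.56 without control pool 1. That of 1443865_at was 0.10 with control pool 1 left out and 0.40 with control pool 2 left out, and that of 1421738_at was -0.02 without threat pool 2 and 0.49 without threat pool 1.

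Gabra4 and Gabra5, the alpha subunits of receptors largely outside synapses, lay close to 0 or slightly below. Gabra4 1433707_at measured 10.84 and 10.94 in control and 10.90 and 10.83 in threat, and the pools overlapped. Its difference of -0.02 ± 0.10 (95% interval -0.26 to 0.21) turned to 0.01 when arrays were centred on their medians. Its dimmer probe set 1429330_at measured 9.66 and 9.87 in control and 9.71 and 9.60 in threat, also with overlap (-0.11 ± 0.11). The single Gabra5 probe set, 1433602_at, measured 9.37 and 9.17 in control and 9.14 and 9.09 in threat. Both threat pools were lower, but the gap from 9.17 to 9.14 was smaller than the spread of the control pools. The Gabra5 difference was -0.15 ± 0.11 (95% interval -0.42 to 0.12, adjusted p = 0.62 in limma) and -0.05 without control pool 1.

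Gabrb2, the beta2 subunit, lay close to 0 in 4 of its 5 probe sets. The brightest, 1429685_at, measured 11.62 and 11.63 in control and 11.68 and 11.58 in threat, a log2 difference of 0.01 ± 0.09 with a 95% interval of -0.22 to 0.24. Probe sets 1428203_at, 1428204_at and 1428205_x_at gave 0.04, 0.07 and -0.0047, and in all 4 the pools overlapped. The dimmest, 1450319_at, measured 8.69 and 8.56 in control and 8.72 and 9.20 in threat, a difference of 0.34 ± 0.17 (95% interval -0.10 to 0.77, adjusted p = 0.52 in limma). That difference came mainly from threat pool 2, without which it was 0.09.

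Gabrb1, the beta1 subunit, was higher in threat by 3 probe sets and lower by 1. The brightest, 1419719_at, measured 11.21 and 11.38 in control and 11.43 and 11.53 in threat, with separate pools and a difference of 0.19 ± 0.11 (95% interval -0.08 to 0.45), which was 0.10 with control pool 1 left out and 0.27 with control pool 2 left out. Probe set 1435095_at measured 10.31 and 10.64 in control and 10.58 and 10.70 in threat, where the pools overlapped (0.16 ± 0.14, and -0.00035 without control pool 1). The dim 1443834_at, at 5.02 and 4.92 in control and 5.19 and 5.27 in threat, had a difference of 0.26 ± 0.10 (unadjusted p = 0.0363, adjusted p = 0.46 in limma). Probe set 1443205_at went the other way, with 9.09 and 9.27 in control and 8.97 and 8.93 in threat (-0.24 ± 0.10, 95% interval -0.49 to 0.02), both threat pools being lower. Its signal minus the mean of the 2 brighter probe sets was -1.67 and -1.74 in control and -2.04 and -2.19 in threat, a contrast formed after the values were seen.

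Gabrg1, the gamma1 subunit, was lower in threat by both of its probe sets. Probe set 1460408_at measured 9.43 and 9.29 in control and 9.07 and 9.27 in threat, and 1427227_at measured 7.73 and 7.47 in control and 7.29 and 7.41 in threat. The pools were separate in both, but control pool 2 and threat pool 2 were close, at 9.29 against 9.27 and 7.47 against 7.41. The log2 differences were -0.19 ± 0.11 (95% interval -0.47 to 0.10, adjusted p = 0.57 in limma) and -0.25 ± 0.12 (-0.56 to 0.05, adjusted p = 0.51). Without threat pool 1 they were -0.09 and -0.19, and without control pool 1 -0.12 and -0.12. Of 9 astrocyte markers, 7 lay below 0 in threat, with a median of -0.11 and none near background. Separate pools were found in 4 of the 9, all lower, beside 18.8% of all genes. The summed linear signal of the 9 was 20089 and 20820 in control and 16719 and 19355 in threat. Threat pool 1 was lowest in this sum and in both Gabrg1 probe sets, while control pool 2 was the higher control pool in the sum and the lower in both Gabrg1 probe sets. The part of astrocytes in the Gabrg1 values was not tested.

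**Figure D3:**
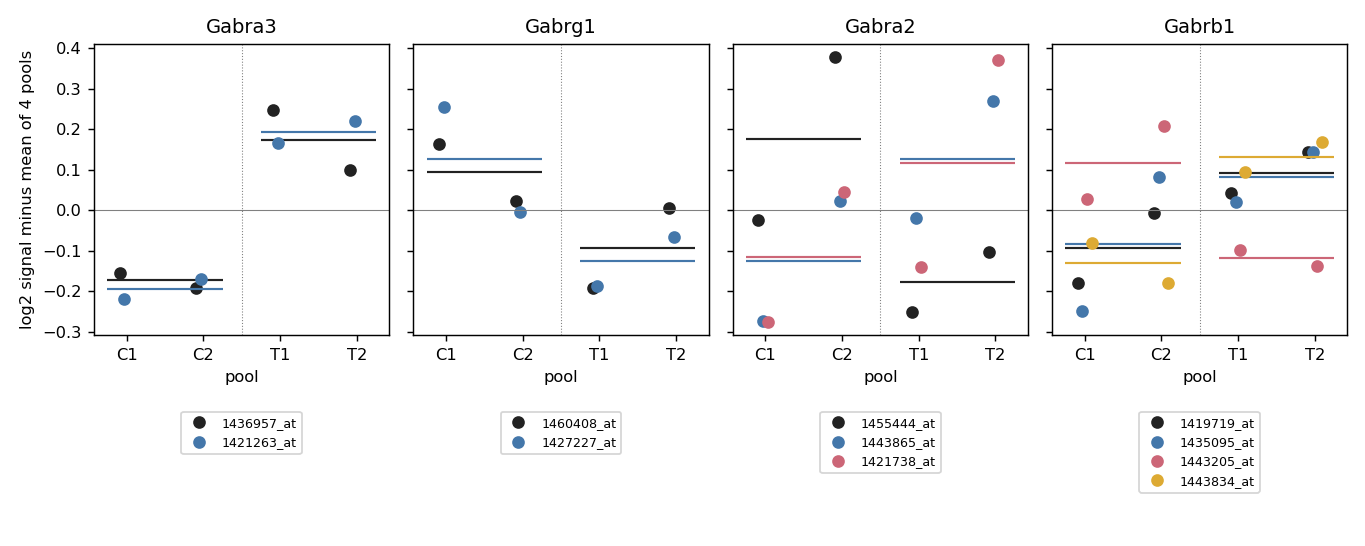
Log2 signal minus the mean of the 4 pools (y axis) in control pools C1 and C2 and threat pools T1 and T2 for the probe sets above background of Gabra3, Gabrg1, Gabra2 and Gabrb1; points are pools, colours are probe sets and lines are group means. Both Gabra3 probe sets are higher and both Gabrg1 probe sets lower in threat, while Gabra2 and Gabrb1 each hold probe sets on opposite sides.

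The 4 genes of the chromosome 5 cluster did not share a direction: Gabrg1 lay below 0 by both probe sets, Gabra4 by both, and Gabra2 and Gabrb1 on both sides. Of 14 probe sets of 8 other genes whose symbol begins with Gabr, 7 had separate pools, 4 higher and 3 lower in threat. Of these 14, 6 lay at background in every pool. Over all probe sets the share was 43.2% in either direction, 23.9% higher and 19.4% lower. None of the 14 passed the adjusted p, and their log2 differences ran from -0.17 to 0.39.

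The genes that work with the receptor were counted in 6 lists with 66 genes in all, of which 60 were measured, each read by the brightest of its probe sets. In threat, 14 had separate pools with higher and 16 with lower values, beside 26.2% and 18.8% of all 18193 genes, and 10 had an unadjusted p under 0.05, beside 10.7%. None passed the adjusted p, and the median difference was 0.01 against 0.02 for all genes.

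Among the enzymes and transporters of GABA, Gad1, which makes most of the brain's GABA, measured 11.78 and 11.78 in control and 11.35 and 11.37 in threat, a log2 difference of -0.42 ± 0.09 (unadjusted p = 0.00371, adjusted p = 0.41 in limma). Gad2, the synaptic isoform, measured 10.15 and 9.93 in control and 9.84 and 9.69 in threat (-0.28 ± 0.12, and -0.17 without control pool 1). For both genes 1 other probe set above background went the other way, at 0.13. The vesicular transporter Slc32a1 was at -0.07 with overlapping pools. The glial GABA transporter Slc6a11 was at 0.37 ± 0.30, but control pool 2 at 7.76 stood apart from the other 3 pools at 8.60 to 8.72, and without it the difference was -0.11. In this list 2 of 7 measured genes had separate pools, both lower, with a median of -0.07. Over all genes the shares were 26.2% higher and 18.8% lower. Of 10 interneuron markers that are not on this list, 1 (Lhx6, at 0.26) was higher and 1 (Dlx2, at -0.30) lower with separate pools, with a median of 0.0033. Lhx6 was at 0.10 with threat pool 1 left out and Dlx2 at -0.04 with control pool 1 left out. All 5 measured striatal markers lay below 0, 2 with separate pools, with a median of -0.32. The part of interneurons and of neighbouring regions in the Gad1 and Gad2 values was not tested.

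The list of anchoring proteins and organisers of the inhibitory synapse had 3 genes higher and 3 lower with separate pools of 13 measured, with a median of 0.01. The shares over all genes were 26.2% higher and 18.8% lower. Gphn, gephyrin, the scaffold under synaptic GABA-A receptors, was at -0.11. Insyn1, a gephyrin-binding protein of the inhibitory postsynapse, measured 5.19 and 5.20 in control and 4.74 and 4.74 in threat (-0.46 ± 0.09, unadjusted p = 0.00251, adjusted p = 0.41 in limma). These are dim signals, near the Bacillus range. The adhesion protein Slitrk3 was higher by 0.31 ± 0.13 (0.17 without threat pool 2) and the receptor auxiliary protein Shisa7 by 0.21 ± 0.09, both with separate pools. Rdx, radixin, which anchors alpha5 receptors, was at -0.20 with separate pools. The trafficking list had 6 higher and 5 lower of 18, with a median of 0.03. It was led by Plcl1, a protein that binds beta subunits and phosphatases, at -0.40 ± 0.13 (0.02 by its other probe set above background), Arfgef2 at 0.29 ± 0.10 (0.30 by its other) and the kinesin Kif5b at -0.24 ± 0.13. Kif5b was at -0.08 without threat pool 1 and -0.41 without threat pool 2, and its 4 other probe sets above background ran from -0.99 to 0.0075. Plcl1 was at -0.24 without control pool 2. Gabarap, which binds gamma subunits, was at -0.02.

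In the GABA-B list, the metabotropic receptor for the same transmitter, 2 of 6 measured genes had separate pools, both higher, with a median of 0.09. The shares of all genes with separate pools were 26.2% higher and 18.8% lower. Both of the 2 are auxiliary subunits: Kctd16 measured 6.19 and 6.36 in control and 6.72 and 6.72 in threat (0.45 ± 0.10, unadjusted p = 0.00555, adjusted p = 0.42 in limma), and Kctd8 5.96 and 5.63 in control and 6.06 and 6.09 in threat (0.28 ± 0.13, and 0.12 without control pool 2). The receptor gene Gabbr1 was at 0.01 and the potassium channel Kcnj9 at 0.15, both with overlapping pools by the brightest probe set. Of 3 other Kcnj9 probe sets above background, 2 were higher with separate pools, and the 3 ran from -0.08 to 0.56. Of the genes that set chloride and bicarbonate, 3 of 10 were higher and 2 lower with separate pools, with a median of 0.02. Slc12a2, which brings chloride into cells, was at -0.27 ± 0.13 and -0.12 without threat pool 1. Slc12a5, the neuronal transporter that exports it, was at 0.08 with overlapping pools. The part of non-neuronal cells in the Slc12a2 value was not tested. The kinase Wnk3, a regulator of both, was at 0.27 ± 0.10 and the chloride channel Clcn2 at 0.26 ± 0.10 (0.18 without control pool 1).

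Of 6 measured genes for endogenous modulators of the receptor, 4 had separate pools, all lower, beside 18.8% of all genes. These were Dbi, Tspo, Star and Hsd3b1. The median of the 6 was -0.19, and 1 was at background. Star (5.15 to 5.55) and Hsd3b1 (4.52 to 4.73) were dim, below the median of all probe sets of 5.56. Dbi, the diazepam binding inhibitor that displaces benzodiazepines, measured 11.90 and 11.80 in control and 11.65 and 11.61 in threat (-0.23 ± 0.09, unadjusted p = 0.0549, adjusted p = 0.48 in limma), and 3 of its 3 other probe sets above background were lower too, at -0.30 to -0.44. Tspo, the outer mitochondrial protein that binds Dbi, was at -0.40 ± 0.16 (-0.22 without threat pool 1), and Star, which moves cholesterol for steroid synthesis, at -0.28 ± 0.11 (-0.18 without control pool 1, and 0.10 by its other probe set above background). Both Dbi and Tspo are also made by non-neuronal cells. Beside them, 6 of 8 microglia markers lay below 0 and 3 had separate pools, all lower, with a median of -0.11 and summed linear signals of 9073 and 8352 in control and 7384 and 8265 in threat. The 6 endothelial markers, all below 0, summed to 973 and 1294 in control and 783 and 940 in threat, and the 8 mural and meningeal markers to 4237 and 7309 in control and 2937 and 3746 in threat. Astrocyte markers lay below 0 in 7 of 9 and above in 2, and 4 had separate pools, all lower (median -0.11). All 10 measured myelin markers were lower with separate pools (median -0.98). The part of these cells in the Dbi and Tspo values was not tested.

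**Figure D4:**
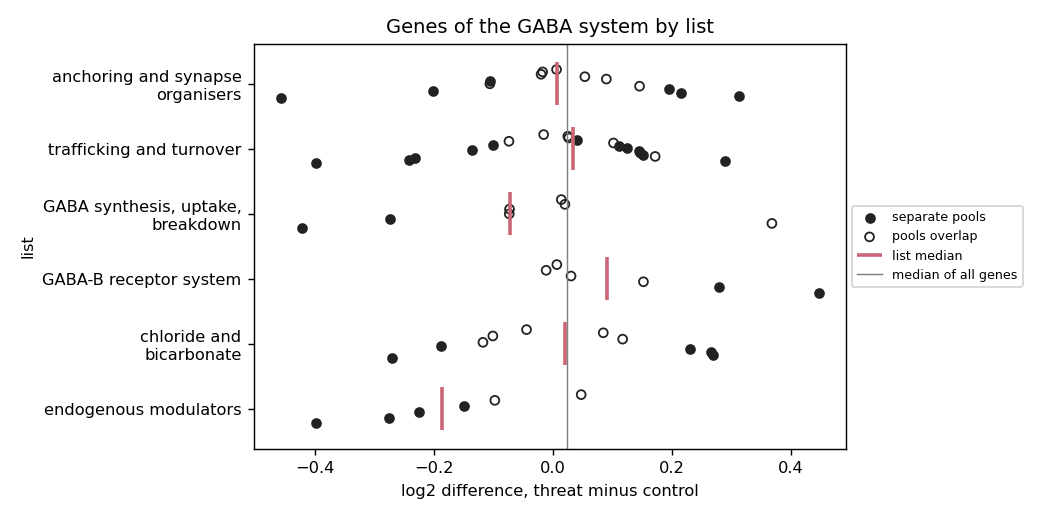
Log2 difference, threat minus control (x axis), of 60 genes of the GABA system in 6 lists (rows), each read by its brightest probe set; filled points have separate pools, open points overlapping pools, red lines are list medians and the grey line the median of all genes, 0.02. Every list holds values on both sides of 0; 5 of 6 GABA-B genes lie above it and 5 of 6 modulators below it.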

How the data were processed

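The authors deposited a log2 value for each probe set on each of 4 arrays. RMA is named in the submitters' processing notes. It usually corrects background and brings arrays to a common distribution, which hides a shift of most transcripts in 1 direction. Its version, settings and chip definition and a genome build were not given in the sources used here. After 64 control probe sets were left out, limma 3.58.1 (R 4.3.3, functions lmFit and eBayes, 2-sided, Benjamini-Hochberg) was fitted to 45037 probe sets with 2 residual degrees of freedom. The fit was also run on simulated arrays with independent pools and planted differences larger than those of the subunits. That checked only that the fit works, not how it behaves on these data. The platform annotation gave 1 symbol to 34945 probe sets, several to 932 and none to 9160. "Separate pools" means that the values of the threat pools and of the control pools do not overlap. With 2 pools a side the smallest exact permutation p is 0.333, so that test was not used. Named were all member probe sets and, from each list, the 3 genes that differed most, while other genes named were chosen after their values were seen. The members and lists were chosen with earlier results of these data known. Alternatives were cyclic loess, median centring, the pool number as block, an intensity trend, bright probe sets only (mean above the median of 5.56), no _x_at or _s_at probe sets, means over a gene's probe sets, and leaving out each pool. The number of arrays limits the precision.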

Additional observations from a re-analysis of the deposited data

How the results depend on the processing

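No subunit probe set passed the adjusted p under any of the 10 alternative fits (lowest 0.294), while 3 had an unadjusted p under 0.05 in the fit of all 4 pools. The count of subunit probe sets with separate pools was 10 and lay between 14 and 18 with 1 pool left out, where fewer pools have to be separate. That of GABA system genes was 30 and lay between 37 and 51. No share over all probe sets was formed with a pool left out, so these higher counts have no background beside them and show nothing about the members. A replicate block by pool number leaves the values as they are, so the counts of 10 and 30 could not change. With it, 0 subunit probe sets passed the adjusted p. Same-numbered pools deviated together (r = 0.33 over 45037 probe sets), but the labels give no shared source. Of 205 values of subunit probe sets under alternatives, 14 changed sign, in 6 probe sets. Many of the 205 could not change sign. The block, the trend and the choices of probe sets left each difference as it was. With 1 pool left out, Gabrb2 1429685_at ranged from -0.042 to 0.054, 1428205_x_at from -0.090 to 0.080, Gabra4 1433707_at from -0.074 to 0.026, Gabrb1 1435095_at from -0.00035 to 0.33, Gabra2 1421738_at from -0.023 to 0.488 and Gabra2 1420299_at, at background, from -0.149 to 0.091. Cyclic loess gave -0.0036 for Gabrb2 1429685_at, and median centring gave 0.0069 for Gabra2 1420299_at, 0.012 for Gabra4 1433707_at and 0.031 for Gabrb2 1428205_x_at. By the mean of its probe sets above background, which differ in sign, Gabra2 was at 0.043 in place of -0.35 by the brightest alone. Why the probe sets differ was not tested. Both Gabra3 and both Gabrg1 probe sets kept their direction under cyclic loess and median centring. The other fits could not reverse it. With separate pools, leaving out 1 pool keeps the sign, and the rest left the differences unchanged.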
